A study of Mus musculus with 36 samples.

Results

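The 3 lipin genes (Lpin1, Lpin2 and Lpin3) and the lipid transporter gene Mfsd2a were followed in liver and whole brain of mice kept awake for 6 h. All probe sets that the platform annotation assigns to these 4 genes by symbol were taken, which gave 8 of the 45037 probe sets tested. Lpin1 had 2 of them, Lpin2 had 4, and Lpin3 and Mfsd2a had 1 each, and Mfsd2a was listed under its present name. The genes were chosen with earlier results of these data known. They are treated as chosen on the signals of the liver arrays after sleep loss, sleep-deprived against control, and that liver response is given as a description.

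Male C57BL/6J, AKR/J and DBA/2J mice, 12 to 13 weeks old, were either sleep-deprived for 6 h starting at light onset or left in their home cages as controls. Both were killed 6 h after light onset, Zeitgeber time (ZT) 6. Each array carried RNA pooled from 3 mice, and each of the 12 groups (2 tissues, 3 strains, 2 conditions) had 3 arrays, so the spread given here is that between pools. The groups differed in strain and sleep and shared sex, age and, by titles and study design, time of death. Some AKR/J control arrays carry a conflicting time label, given below. They do not separate sleep loss from the handling that keeps mice awake. The values are log2 signals from Affymetrix arrays, in which 1 unit is a doubling. Levels were compared within a tissue and within a probe set only, because the median over all probe sets differed between tissues (4.77 for brain, 4.10 for liver) and probe sets differ in how brightly they report their transcript.

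Some arrays stood apart or lay at the edge of a range, and they are named here before the results that rest on them. Among brain arrays, sleep-deprived C57BL/6J 1, AKR/J 3 and DBA/2J 2 had the narrowest spread of values (SD over probe sets 1.90 to 1.96, against 1.97 to 2.05 on the other 15). No clear gap set these 3 off, since AKR/J 3 was at 1.9608 and control C57BL/6J 2 at 1.9706. The line between them was drawn after the data had been seen. The excess of the 3′ over the 5′ beta-actin signal, a measure of RNA integrity, was raised on brain control arrays C57BL/6J 2 (1.13) and DBA/2J 3 (0.98), against 0.58 to 0.89 on the other 16. The same excess reached 2.16 on liver control array 1 of DBA/2J, against 0.96 to 1.45 on the other 17. Liver DBA/2J sleep-deprived array 2 carried skeletal muscle transcripts. Acta1 was at 11.71 there and Ckm at 9.78, against 3.61 to 4.08 and 4.44 to 4.84 on the other 17 liver arrays, and Tnnt3 (8.88) and Mylpf (8.44) were raised too. Of the 6 muscle genes read, Mb (4.33) lay within the range of the other arrays and Myh4 (3.33) just above it. The source name of AKR/J control arrays 2 and 3 in each tissue gives ZT 0, while their titles and the study design give ZT 6. They were kept as ZT 6 controls. The tissues themselves were as labelled, with hepatocyte markers at 11.84 to 14.66 in liver and neuronal markers at 9.13 to 12.77 in brain. Neuronal markers were at 2.63 to 6.62 in liver. Hepatocyte markers in brain were at 3.34 to 6.12, apart from Ttr, which was bright in brain too (12.87).

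Lipins are phosphatidate phosphatases. They turn phosphatidic acid into diacylglycerol, the precursor of triglycerides and of the common membrane phospholipids, and lipin 1 also enters the nucleus, where it acts with transcriptional coactivators on fatty acid oxidation genes in liver. Lpin1 is the gene mutated in the fatty liver dystrophy (fld) mouse, and fasting and glucocorticoids are known to raise it in liver. Mfsd2a is a sodium-dependent transporter of lysophosphatidylcholine, the form in which docosahexaenoic acid crosses the blood-brain barrier. It is known in brain chiefly from endothelial cells, and its liver transcript is known to rise on fasting.

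Lpin1 lies at chr12:16535669-16653903, Lpin2 at chr17:71183532-71249818, Lpin3 at chr2:160880670-160906000 and Mfsd2a at chr4:122946850-122961194 in the mouse assembly GRCm38.p6. All 4 genes had entries in RefSeq's promoter table, which gives 250 bases before and 50 bases after an annotated start. Windows of the 3 genes whose probe sets were higher in sleep-deprived liver are shown, 5′ to 3′ along the gene, with the motifs that each held. They span chr12:16610917-16611216 on the minus strand for Lpin1, chr4:122961139-122961438 on the minus strand for Mfsd2a and chr17:71183282-71183581 on the plus strand for Lpin2, the first of its 3 listed starts. Capitals mark the motifs found among the 4 that were searched on both strands, which were CACGTG (the E-box of clock and related factors), TGACGTCA (the full cAMP response element), AGGTCA (the nuclear receptor half-site) and AGAACA (the glucocorticoid receptor half-site, TGTTCT on the other strand).
Lpin1: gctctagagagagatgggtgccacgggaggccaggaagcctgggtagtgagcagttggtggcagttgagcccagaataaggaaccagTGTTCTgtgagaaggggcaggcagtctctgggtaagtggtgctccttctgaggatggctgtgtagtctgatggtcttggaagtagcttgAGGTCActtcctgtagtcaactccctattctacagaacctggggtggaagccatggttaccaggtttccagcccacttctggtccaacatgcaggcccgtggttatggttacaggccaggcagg
Mfsd2a: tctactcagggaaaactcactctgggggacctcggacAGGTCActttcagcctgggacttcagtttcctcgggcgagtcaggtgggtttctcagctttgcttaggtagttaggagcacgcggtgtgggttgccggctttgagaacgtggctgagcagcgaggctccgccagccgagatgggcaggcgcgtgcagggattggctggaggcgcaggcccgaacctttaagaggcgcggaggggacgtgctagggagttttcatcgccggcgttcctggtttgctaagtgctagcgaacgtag
Lpin2: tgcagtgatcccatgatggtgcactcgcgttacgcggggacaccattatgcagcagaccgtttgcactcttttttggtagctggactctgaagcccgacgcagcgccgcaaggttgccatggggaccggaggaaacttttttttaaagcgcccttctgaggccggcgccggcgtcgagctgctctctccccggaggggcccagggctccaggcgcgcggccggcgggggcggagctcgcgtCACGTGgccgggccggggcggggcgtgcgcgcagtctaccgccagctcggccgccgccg
The Lpin1 and Mfsd2a windows each held AGGTCA, at bases 177 to 182 and at bases 38 to 43, a motif present in 16.3% of all 32851 windows in the table. The Lpin1 window also held TGTTCT at bases 88 to 93, and AGAACA on either strand was present in 19.0% of windows. Lpin2 had CACGTG at bases 242 to 247, present in 7.15% of windows, and no searched motif was in every printed window. The motifs were not limited to the genes that were higher in liver. The Lpin3 window held CACGTG at bases 273 to 278 and TGTTCT at bases 6 to 11, and another Lpin2 window held TGTTCT at bases 48 to 53. TGACGTCA, present in 1.79% of windows, was in none of the 7 windows of the 4 genes. The start used in liver was not analysed here, and a match describes these letters only.

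Lpin1 was higher after sleep loss in the liver of all 3 strains on both of its probe sets. In C57BL/6J liver, Lpin1 (1418288_at) read 10.65, 10.65 and 10.79 in sleep-deprived pools, against 8.50, 7.83 and 8.57 in controls. In AKR/J liver it read 9.43, 8.97 and 8.82 in sleep-deprived pools, against 8.11, 7.78 and 7.59 in controls. In DBA/2J liver it read 8.06, 7.92 and 7.79 in sleep-deprived pools, against 6.98, 7.29 and 7.32 in controls. Every sleep-deprived pool lay above every control pool of its strain, and the smallest gap was in DBA/2J. The share of all probe sets without such overlap was not counted, so non-overlap here and below only describes the pools. The C57BL/6J difference was 2.39 ± 0.18 (SE, n = 3 arrays per group), or 5.26-fold. It was 1.25 ± 0.18 (2.37-fold) for AKR/J and 0.73 ± 0.18 (1.66-fold) for DBA/2J.

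The other Lpin1 probe set, 1426516_a_at, gave the same order of strains. Its C57BL/6J pools read 11.16, 11.20 and 11.21 after sleep loss, against 9.10, 8.47 and 9.19 in controls. AKR/J pools read 9.50, 9.24 and 9.18 after sleep loss, against 8.44, 8.17 and 8.05 in controls. DBA/2J pools read 8.44, 8.15 and 7.99 after sleep loss, against 6.89, 7.40 and 7.69 in controls. The 3 sleep-deprived C57BL/6J pools were close to each other and above every other group. C57BL/6J differed by 2.27 ± 0.19, AKR/J by 1.09 ± 0.19 and DBA/2J by 0.86 ± 0.19. Over the strains, sleep-deprived liver exceeded control liver by 1.46 ± 0.11 (2.74-fold) on 1418288_at and 1.41 ± 0.11 (2.65-fold) on 1426516_a_at.

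The order of Lpin1 group means in liver was the same at its top and bottom on both probe sets. On 1418288_at it ran from sleep-deprived C57BL/6J (10.70), through sleep-deprived AKR/J (9.07), control C57BL/6J (8.30), sleep-deprived DBA/2J (7.92) and control AKR/J (7.83), down to control DBA/2J (7.20). Control C57BL/6J overlapped sleep-deprived DBA/2J, which overlapped control AKR/J, and the remaining neighbours did not overlap. On 1426516_a_at control AKR/J (8.22) stood just above sleep-deprived DBA/2J (8.19) and overlapped it, as sleep-deprived AKR/J (9.31) did control C57BL/6J (8.92). Sleep-deprived DBA/2J liver had a lower mean Lpin1 signal than control C57BL/6J liver on both probe sets.

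**Figure D1:**
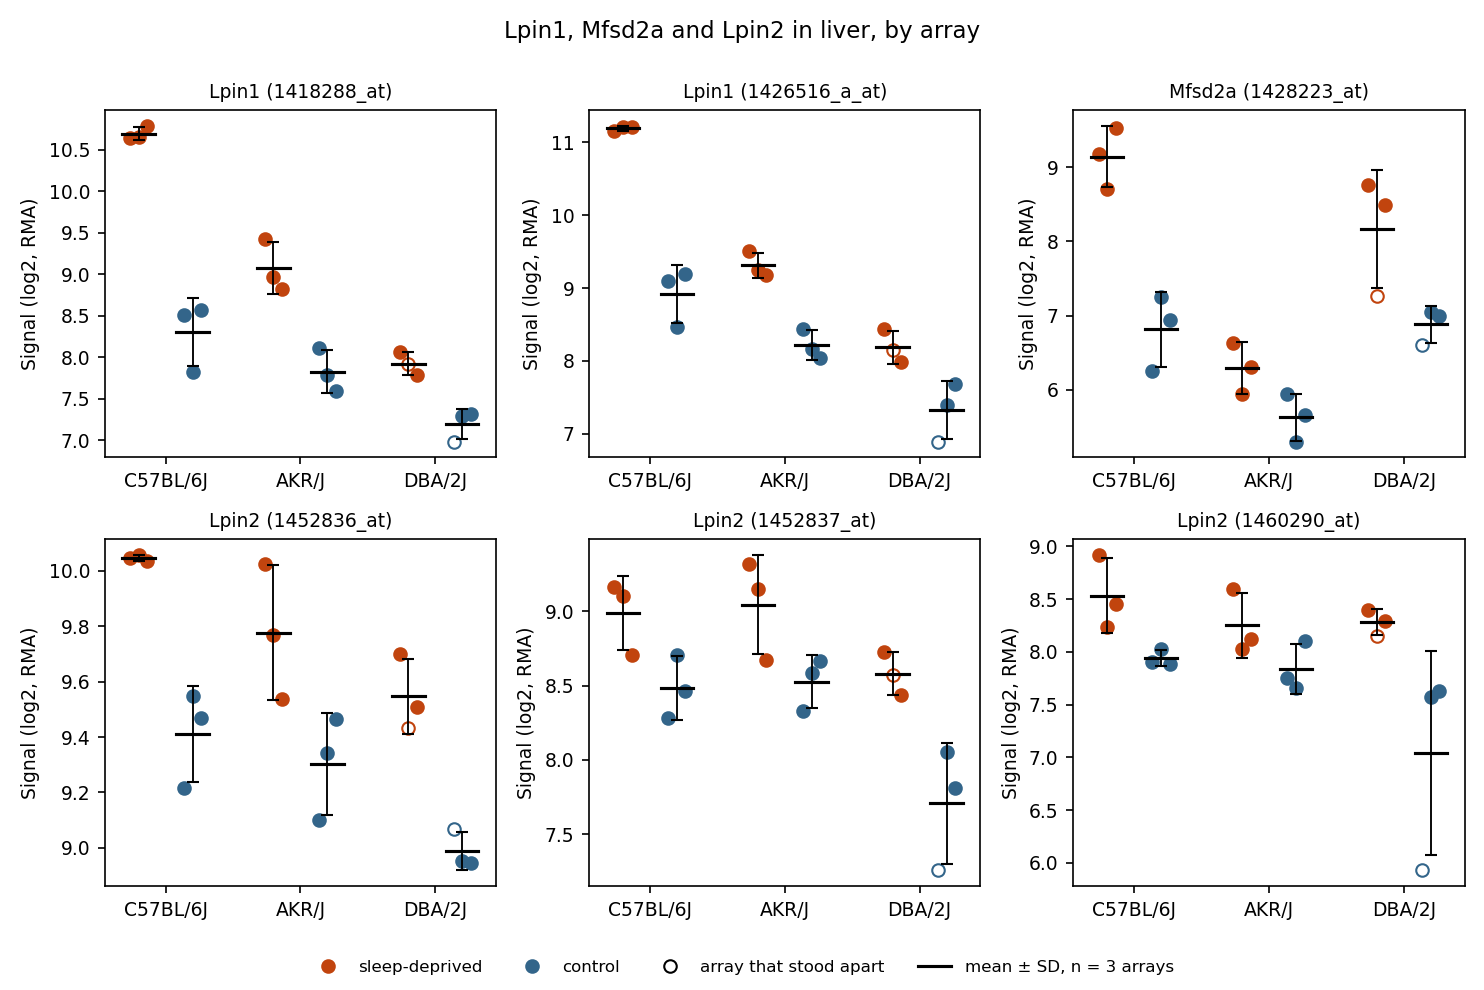
Log2 signal of Lpin1, Mfsd2a and the 3 brighter Lpin2 probe sets in liver. Each point is 1 array of a pool of 3 mice, lines and bars are the mean ± SD of 3 arrays, sleep-deprived pools stand left of control pools in each strain, and open points are DBA/2J sleep-deprived array 2 and DBA/2J control array 1. Lpin1 in sleep-deprived C57BL/6J lies above all other groups, and the open control point is the lowest DBA/2J control on 5 of the 6 panels.

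Mfsd2a was also higher in sleep-deprived liver, with a different order of strains. C57BL/6J pools read 9.18, 8.71 and 9.53 after sleep loss, against 6.26, 7.25 and 6.94 in controls. DBA/2J pools read 8.76, 7.26 and 8.49 after sleep loss, against 6.60, 7.05 and 7.00 in controls. AKR/J pools read 6.63, 5.94 and 6.30 after sleep loss, against 5.94, 5.30 and 5.65 in controls. Sleep-deprived pools lay above the controls of their strain throughout, but in AKR/J the lowest sleep-deprived pool and the highest control were almost equal. C57BL/6J differed by 2.32 ± 0.32 (5.01-fold), DBA/2J by 1.29 ± 0.32 (2.44-fold) and AKR/J by 0.66 ± 0.32 (1.58-fold), and the mean over the strains was 1.42 ± 0.18. Among the strains, only C57BL/6J had an adjusted p under 0.05 in limma. The limma adjusted p was 0.0820 in DBA/2J and 0.5251 in AKR/J, where the 95% interval was -0.01 to 1.33. Group means ran from sleep-deprived C57BL/6J (9.14) and sleep-deprived DBA/2J (8.17), which overlapped, through control DBA/2J (6.88), control C57BL/6J (6.82) and sleep-deprived AKR/J (6.29), each overlapping the next, to control AKR/J (5.63). Sleep-deprived AKR/J liver therefore had a lower mean Mfsd2a signal than control liver of either other strain.

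The lowest of the DBA/2J sleep-deprived values, 7.26, came from array 2, the one with muscle transcripts. Without that array the DBA/2J difference of Mfsd2a was 1.74, while those of Lpin1, a gene also known from skeletal muscle, were 0.73 and 0.89 on its 2 probe sets. On array 2 neither Lpin1 nor Mfsd2a was the highest of its group. The part of muscle RNA in these signals was not tested.

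Averaged over the strains, the Lpin2 differences in liver were smaller than those of Lpin1 and Mfsd2a, but in DBA/2J they were not all smaller than those of Lpin1. On its brightest probe set, 1452836_at, C57BL/6J pools read 10.05, 10.06 and 10.03 after sleep loss, against 9.22, 9.55 and 9.47 in controls. AKR/J pools read 10.03, 9.77 and 9.54 after sleep loss, against 9.10, 9.34 and 9.46 in controls. DBA/2J pools read 9.70, 9.43 and 9.51 after sleep loss, against 9.07, 8.95 and 8.94 in controls. Again no sleep-deprived pool overlapped the controls of its strain. C57BL/6J differed by 0.64 ± 0.12, AKR/J by 0.47 ± 0.12 and DBA/2J by 0.56 ± 0.12, and the mean over the strains was 0.56 ± 0.07 (1.47-fold). Probe sets 1452837_at and 1460290_at gave 0.63 ± 0.11 and 0.75 ± 0.18 over the strains. Sleep-deprived and control pools overlapped in C57BL/6J on 1452837_at and in AKR/J on 1460290_at. On 1452837_at C57BL/6J differed by 0.51 ± 0.19, AKR/J by 0.52 ± 0.19 and DBA/2J by 0.87 ± 0.19. On 1460290_at C57BL/6J differed by 0.59 ± 0.31 and AKR/J by 0.41 ± 0.31. On these 2 probe sets no C57BL/6J or AKR/J difference had an adjusted p under 0.05 in limma. The largest strain value of 1460290_at, 1.24 ± 0.31 in DBA/2J, rested on control array 1, which read 5.93 against 7.57 and 7.63 on the other DBA/2J controls. Without that array, the one with the raised beta-actin difference, it was 0.68.

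The remaining Lpin2 probe set, 1446316_at, stayed dim, at 2.70 to 3.57 over all liver arrays, with a difference of 0.17 ± 0.07. Lpin3 is the remaining phosphatase of the family. Its liver signal on 1449440_at was 4.13 to 4.75 in sleep-deprived pools and 4.18 to 5.02 in controls, and the difference was -0.09 ± 0.08 (95% interval -0.26 to 0.08). This signal was low too, at a mean of 4.47 against a median of 4.10 over all probe sets. Changes at low signal are compressed, so the interval need not bound the change in transcript.

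Counted at an adjusted p under 0.05 in limma, 6 of the 8 probe sets were higher in sleep-deprived liver over the strains and none was lower, where 2.4% of all probe sets were higher. The 2 that did not pass were Lpin3 and the dim Lpin2 probe set, whose adjusted p was 0.2386 (limma). Within strains, 4 of 8 were called higher in C57BL/6J (background 0.524%), 2 in AKR/J (0.451%) and 3 in DBA/2J (0.457%). The 4 called in C57BL/6J were both of Lpin1, Mfsd2a and Lpin2 1452836_at. The 2 called in AKR/J were those of Lpin1, and neither was called once AKR/J controls 2 and 3 were left out (0.96 on 1418288_at, 0.87 on 1426516_a_at). The 3 called in DBA/2J lay near the threshold. Lpin1 1426516_a_at kept its call under 8 of 26 alternatives, Lpin2 1452836_at under 10 and Lpin2 1452837_at under 12. Without DBA/2J control 1 the DBA/2J difference was 0.65 for Lpin1 1426516_a_at and 0.65 for Lpin2 1452837_at, and neither passed. The liver response chose these genes, so nothing is read from these counts. The called probe sets had mean differences between 0.56 (Lpin2 1452836_at) and 1.46 (Lpin1 1418288_at), and the nearest outside the threshold was Lpin2 1446316_at at 0.17.

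The liver response of Lpin1 and of Mfsd2a was largest in C57BL/6J. The response in DBA/2J minus that in C57BL/6J was -1.67 ± 0.26 on 1418288_at and -1.41 ± 0.27 on 1426516_a_at, and the response in AKR/J minus that in C57BL/6J was -1.15 ± 0.26 and -1.18 ± 0.27. For Mfsd2a, AKR/J minus C57BL/6J was -1.66 ± 0.45 and DBA/2J minus C57BL/6J was -1.04 ± 0.45. The strain by sleep deprivation interaction passed for 1 of the 8, Lpin1 1418288_at, where 0.0333% of all probe sets passed. The other Lpin1 probe set and Mfsd2a did not pass. With 1 liver array left out, the number passing was 1 without AKR/J control 3, AKR/J sleep-deprived 1 or 3 or C57BL/6J control 3, 2 without DBA/2J control 1, and 0 without any other array. These differences come from the same liver arrays that chose the genes.

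**Figure D2:**
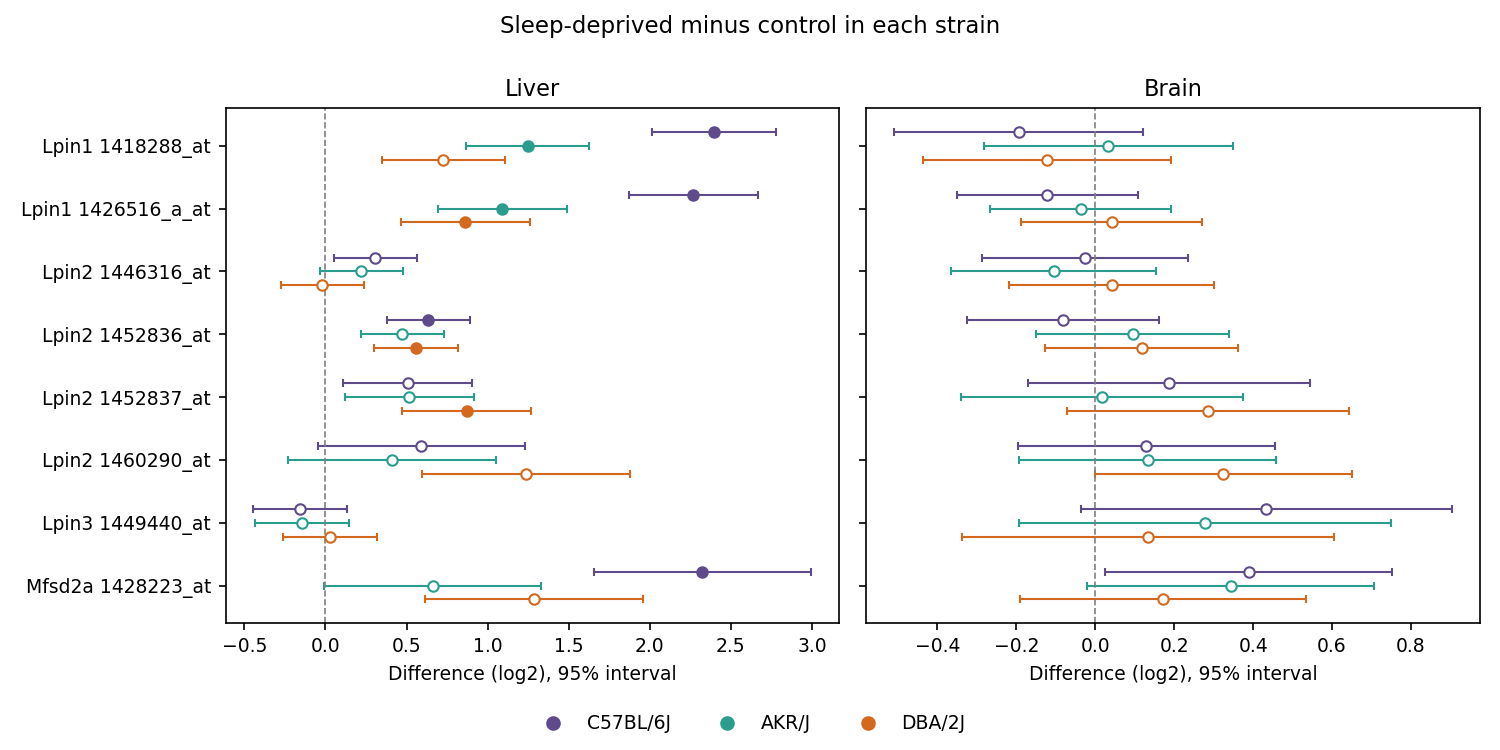
Sleep-deprived minus control log2 signal of each probe set in each strain, in liver (left) and brain (right). Points are limma estimates from 3 arrays per group, bars are 95% intervals, filled points passed at an adjusted p under 0.05 over all probe sets, and the horizontal scales of the panels differ. In liver the C57BL/6J points of Lpin1 and Mfsd2a lie above 2, and in brain no point is filled.

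The brain comparisons were tested on the assumption that brain values did not choose the genes, which the way they were chosen does not state. None of the 8 probe sets passed for the effect of sleep loss over the strains, where 1.73% of all probe sets passed. An unadjusted p under 0.05 in limma was found for 3 of the 8. The share of all probe sets at that unadjusted threshold was not counted, so nothing is read from the unadjusted counts here or below. None passed in C57BL/6J (0.0377% of all), AKR/J (0.3%) or DBA/2J (0.104%), and 1, Mfsd2a in C57BL/6J, had an unadjusted p under 0.05 in any of these. No probe set in the whole table passed the strain by sleep deprivation interaction in brain (0%), and none of the 8 had an unadjusted p under 0.05 there.

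Mfsd2a had the largest of the 8 differences in brain when averaged over the strains, close to that of Lpin3. Within C57BL/6J that of Lpin3 was larger, and within DBA/2J those of Lpin2 1452837_at and 1460290_at were. C57BL/6J pools read 6.86, 6.98 and 7.05 after sleep loss, against 6.61, 6.72 and 6.40 in controls. AKR/J pools read 7.02, 7.11 and 6.77 after sleep loss, against 6.57, 6.61 and 6.69 in controls. DBA/2J pools read 7.14, 6.23 and 6.84 after sleep loss, against 6.60, 6.38 and 6.73 in controls. The conditions did not overlap in C57BL/6J or AKR/J, but the share of all probe sets doing so was not counted and neither difference passed. In each strain the array of narrow spread was the lowest sleep-deprived one, and in DBA/2J it lay below all controls. The difference over the strains was 0.30 ± 0.10 (1.23-fold, limma adjusted p = 0.1678). Without the 3 arrays of narrow spread it was 0.44 and passed (limma adjusted p = 0.0029), and without the 2 arrays of raised beta-actin difference as well it was 0.49 (limma adjusted p = 0.0013). It also passed without DBA/2J sleep-deprived array 2 alone, at 0.39 (limma adjusted p = 0.0104), and with array weights, at 0.40. Over all alternatives run, the difference lay between 0.23 and 0.49 and the adjusted p in limma between 4.20e-04 and 0.6490. It stayed uncalled under 24 of the 28 alternatives and was called under 4. The arrays of narrow spread were set aside for their overall spread, after the data had been seen. All 3 were sleep-deprived and held the lowest Mfsd2a value of their group, so leaving them out could only raise the difference. The fits without them are therefore no independent test of it. By strain, C57BL/6J differed by 0.39 ± 0.17, AKR/J by 0.34 ± 0.17 and DBA/2J by 0.17 ± 0.17, none of which passed.

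Lpin3, on its single probe set, was dim in brain, at a mean of 4.41 against a median of 4.77 over all probe sets. Lpin3 followed the arrays of narrow spread in the direction opposite to Mfsd2a. C57BL/6J pools read 5.23, 4.54 and 4.44 after sleep loss, against 4.27, 4.45 and 4.19 in controls. AKR/J pools read 4.20, 4.33 and 4.99 after sleep loss, against 4.14, 4.30 and 4.25 in controls. DBA/2J pools read 4.12, 4.86 and 4.24 after sleep loss, against 4.17, 4.45 and 4.21 in controls. The highest pool of each strain was its array of narrow spread, and the other pools overlapped the controls in each strain. The difference over the strains was 0.28 ± 0.13 (limma adjusted p = 0.3840) and 0.04 without those 3 arrays.

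Lpin1 and Lpin2 showed no called difference in brain. Lpin1 read 6.12 to 6.79 in sleep-deprived pools and 6.35 to 6.75 in controls on 1418288_at, with a difference of -0.09 ± 0.09 (95% interval -0.28 to 0.09). On 1426516_a_at the difference was -0.04 ± 0.06 (95% interval -0.17 to 0.09). In DBA/2J liver, the smallest liver response of Lpin1, the same probe sets gave 0.73 (95% interval 0.35 to 1.11) and 0.86 (0.46 to 1.26). Those liver values are from 1 strain and from the response that chose the genes. The brain and liver responses were not compared in a test. Lpin2 1452836_at read 7.78 to 8.29 in sleep-deprived pools and 7.87 to 8.09 in controls, a difference of 0.04 ± 0.07. Probe sets 1452837_at and 1460290_at gave 0.16 ± 0.10 and 0.20 ± 0.09 (limma adjusted p = 0.5736 and 0.3819).

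**Figure D3:**
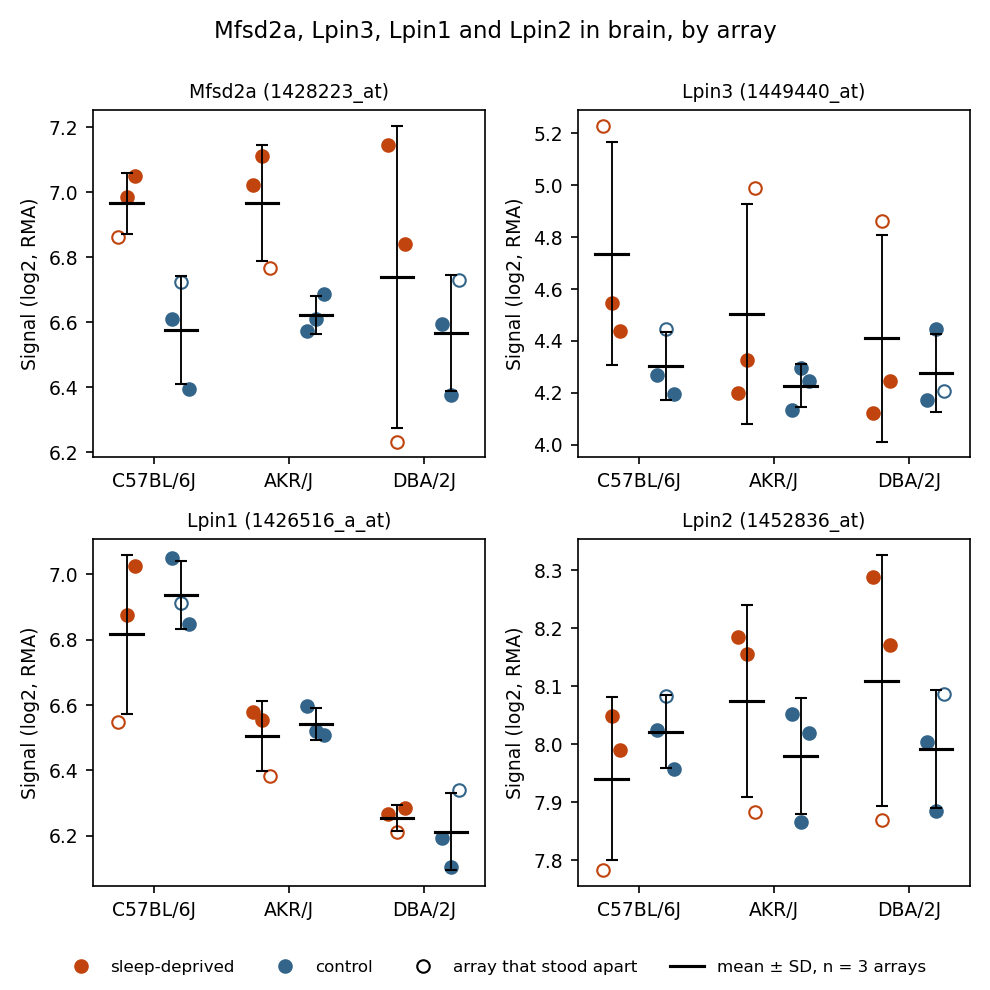
Log2 signal of Mfsd2a, Lpin3, Lpin1 and Lpin2 in brain. Each point is 1 array of a pool of 3 mice, lines and bars are the mean ± SD of 3 arrays, sleep-deprived pools stand left of control pools, and open points are the 3 sleep-deprived arrays of narrow spread and the 2 controls of raised beta-actin difference. The open sleep-deprived points are the lowest of their groups for Mfsd2a and the highest for Lpin3.

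Home-cage controls of the strains also differed. In brain these comparisons were tested on the same assumption, that brain values did not choose the genes. The liver control arrays are part of the liver response that chose the genes. The liver control differences, counts and p-values are therefore given as a description. In both tissues the control arrays enter the responses above, and the 3 strain pairs share arrays with each other. In liver, 4 of the 8 probe sets differed between DBA/2J and C57BL/6J controls, where 5.57% of all probe sets did. Lpin1 was lower in DBA/2J on both probe sets, at 7.20 ± 0.18 in DBA/2J against 8.30 ± 0.41 in C57BL/6J on 1418288_at (SD, n = 3 each), a difference of -1.11 ± 0.18 (limma adjusted p = 6.35e-04). On 1426516_a_at it was 7.33 ± 0.40 in DBA/2J against 8.92 ± 0.40 in C57BL/6J, a difference of -1.60 ± 0.19 (limma adjusted p = 1.73e-05). No DBA/2J control pool overlapped a C57BL/6J control pool on either. Lpin2 was lower in DBA/2J by -0.42 ± 0.12 on 1452836_at (limma adjusted p = 0.0498) and -0.77 ± 0.19 on 1452837_at (limma adjusted p = 0.0181).

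AKR/J controls differed from C57BL/6J controls on 2 of the 8, where 5.09% of all probe sets did. Lpin1 1426516_a_at was lower in AKR/J, at 8.22 ± 0.20 in AKR/J against 8.92 ± 0.40 in C57BL/6J, a difference of -0.70 ± 0.19 (limma adjusted p = 0.0367). Mfsd2a was lower in AKR/J, at 5.63 ± 0.32 in AKR/J against 6.82 ± 0.51 in C57BL/6J, a difference of -1.19 ± 0.32 (limma adjusted p = 0.0354). DBA/2J controls differed from AKR/J controls on 3, where 4.21% of all probe sets did. Mfsd2a was higher in DBA/2J, at 6.88 ± 0.25 in DBA/2J against 5.63 ± 0.32 in AKR/J, a difference of 1.25 ± 0.32 (limma adjusted p = 0.0290). Lpin1 1426516_a_at was lower in DBA/2J by -0.89 ± 0.19 (limma adjusted p = 0.0076) and Lpin2 1452837_at by -0.82 ± 0.19 (limma adjusted p = 0.0150).

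The liver control differences of Lpin1 between DBA/2J and C57BL/6J kept their call under all 26 alternatives run, within -1.34 to -0.97 and -1.82 to -1.38 on the 2 probe sets. The other called differences in liver lost their call when single arrays were left out. Lpin2 1452836_at, DBA/2J minus C57BL/6J, kept its call under 10 of 26 alternatives (-0.52 to -0.35). It lost it without any 1 DBA/2J array, any 1 sleep-deprived C57BL/6J array, C57BL/6J control 2 or 3, AKR/J control 2 or AKR/J sleep-deprived array 2. Lpin2 1452837_at did not pass without DBA/2J control 1 in either pair, at -0.55 against C57BL/6J and -0.59 against AKR/J, nor against C57BL/6J without C57BL/6J control 2 or 3 (-0.95 to -0.55 over all alternatives). Lpin1 1426516_a_at, DBA/2J minus AKR/J, did not pass without DBA/2J control 1 (-0.68) or AKR/J control 1. The AKR/J minus C57BL/6J difference of Lpin1 1426516_a_at lost its call without AKR/J control 2 or 3 or C57BL/6J control 1 or 3 (-0.93 to -0.48). That of Mfsd2a lost it without AKR/J control 2 or 3 or C57BL/6J control 2 or 3 (-1.46 to -0.88). Mfsd2a in DBA/2J minus AKR/J lost it without AKR/J control 2 or 3 or DBA/2J control 2 or 3 (0.94 to 1.40). Lpin2 1452837_at in DBA/2J minus AKR/J lost it without AKR/J control 2 or 3 as well. None of the 5 called differences that involve AKR/J controls passed without the 2 AKR/J arrays of conflicting time label. That leaves 1 AKR/J control in liver, assumed to vary like the other groups, and Mfsd2a was then -0.88 for AKR/J minus C57BL/6J and 0.94 for DBA/2J minus AKR/J. Lpin1 1426516_a_at was then -0.48 for AKR/J minus C57BL/6J, and for DBA/2J minus AKR/J it was -1.12, larger in size than with all arrays. Lpin2 1452837_at was then -0.62 for DBA/2J minus AKR/J.

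In control brain 1 of the 8 differed between DBA/2J and C57BL/6J, where 1.9% of all probe sets did. Lpin1 1426516_a_at read 6.19, 6.11 and 6.34 in DBA/2J controls, against 7.05, 6.91 and 6.85 in C57BL/6J controls, a difference of -0.72 ± 0.11 (limma adjusted p = 7.22e-04). The groups did not overlap. The other Lpin1 probe set gave a difference of 6e-04 ± 0.15 between the same arrays, with a 95% interval of -0.31 to 0.32. The Lpin1 probe sets thus disagreed in brain and pointed the same way in liver. Whether strain differences in the sequence under a probe, or different transcripts of the gene, moved these signals was not tested. None of the 8 passed between AKR/J and C57BL/6J controls (2% of all probe sets did) or between DBA/2J and AKR/J controls (1.59%) in brain. Unadjusted p was under 0.05 in limma for 1 and 2 of them, again without a share over all probe sets.

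**Figure D4:**
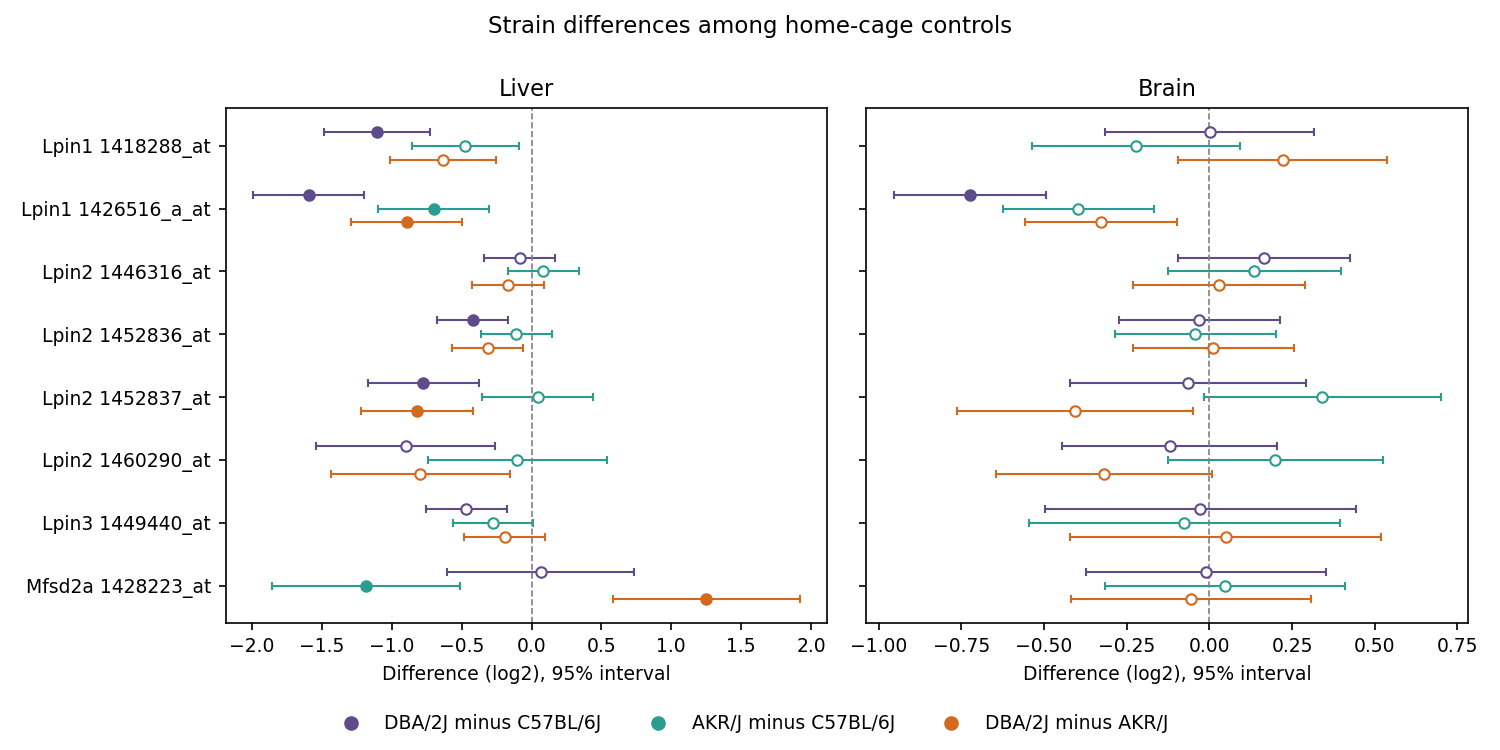
Strain differences in log2 signal among home-cage controls, in liver (left) and brain (right). Points are limma estimates from 3 arrays per strain, bars are 95% intervals, filled points passed at an adjusted p under 0.05 over all probe sets, and the horizontal scales of the panels differ. In liver Lpin1 lies below 0 in DBA/2J minus C57BL/6J on both probe sets, and in brain only 1426516_a_at does.

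Genes that work beside the lipins and Mfsd2a were read from 5 lists. Each gene was taken by its brightest probe set, and in liver 2.97% of 18193 genes were higher and 1.91% lower after sleep loss, with a median change of -0.02 over all genes. Of 17 measured genes of glycerolipid synthesis, 1 rose in liver, Plpp1, another phosphatidate phosphatase (0.36 ± 0.07, limma adjusted p = 0.0083), none fell, and the median change was -0.03. Of 18 genes of phospholipid synthesis, 1 rose, Pgs1 of the phosphatidylglycerol pathway (0.24 ± 0.06, limma adjusted p = 0.0313), with a median of 0.01. Of 18 genes of lipolysis and lipid droplets, 1 rose, Plin5, a droplet coat protein (0.69 ± 0.07, limma adjusted p = 5.60e-06), with a median of 0.06. Of 28 genes of lysophospholipid and long-chain fatty acid handling, 1 rose, the elongase Elovl5 (0.30 ± 0.08, limma adjusted p = 0.0355), with a median of -0.01.

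Known regulators and partners of lipins moved both ways in liver. Of 18, Creb1, the cAMP-responsive transcription factor, rose (0.53 ± 0.09, limma adjusted p = 0.0011), as did Hnf4a, a hepatocyte nuclear receptor (0.23 ± 0.06, limma adjusted p = 0.0362). Srebf1, a master factor of lipid synthesis, fell (-0.56 ± 0.11, limma adjusted p = 0.0051), as did the deacetylase gene Hdac1 (-0.22 ± 0.06, limma adjusted p = 0.0351), and the median over the 18 was 0.01. In brain, where 0.951% of genes were higher and 1.6% lower with a median of -0.01, 2 genes of the 5 lists passed. Srebf1 fell (-0.29 ± 0.05, limma adjusted p = 0.0030, 1 of 18 in its list) and Dgat2, which makes triglyceride from diacylglycerol, fell (-0.21 ± 0.05, limma adjusted p = 0.0467, 1 of 17), and none rose. The brain medians lay between -0.05 and 0.0014 over the 5 lists.

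Cell type markers were read beside these values. In brain, none of 11 endothelial markers passed in either direction on its brightest probe set, 1 was called when any of its probe sets counted, and their summed linear signal was 1334 to 1724 in sleep-deprived pools and 1256 to 1558 in controls. Pituitary transcripts varied widely between brain pools, from 177 to 7435 summed over 6 genes in sleep-deprived pools and from 209 to 11919 in controls, and none of the 6 passed. In liver, 3 of 7 endothelial markers rose (Lyve1 by 0.99, Pecam1 by 0.42 and Clec4g by 0.34, all passing in limma), with summed signals of 1260 to 1621 in sleep-deprived pools and 941 to 1389 in controls. Of 7 hepatocyte markers 1 rose, Tat (0.83 ± 0.11, limma adjusted p = 2.30e-04), an enzyme gene known to respond to glucocorticoids. No Kupffer cell (7), stellate and bile duct (8), adipocyte (4) or muscle (6) marker passed in liver. The part of any of these in the lipin and Mfsd2a values was not tested, and in bulk tissue fewer cells of a type and less RNA per cell cannot be told apart.

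The genes most like each member were taken by Pearson's r of log2 signal over the 18 arrays of a tissue, which share strain and condition as well as pool. In liver, Lpin1 1426516_a_at was most like Tedc2 (r = 0.95), Slc25a51 (0.94), Asl (0.91), Ppme1 (0.91) and Enc1 (0.90). Mfsd2a was most like Tcim (0.94), Atg14 (0.91), Slc38a2 (0.91), Cebpd (0.90) and Ivns1abp (0.90). Lpin2 1452836_at was most like Neurl4 (0.92), Wbp1l (0.91), Rnf169 (0.89), Ppme1 (0.89) and Etfbkmt (0.89), so that Ppme1 was the gene named for both Lpin1 and Lpin2. Lpin3 was most like Csf3r (0.83). In brain Mfsd2a was most like Mxd4 (0.94), Mettl3 (0.85), Ankrd33b (0.85), the clock gene Per2 (0.85) and 2410004B18Rik (0.84), while Lpin1 1418288_at was most like Rock1 (0.92) and Lpin2 1452836_at most like Tm2d3 (0.92).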

How the data were processed

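Whole brain and liver RNA was measured on Affymetrix arrays, with 36 arrays in 12 groups of 3. The deposited values are log2 signals. Per the submitters' processing notes the authors used RMA, whose version the sources used here do not give. RMA corrects background, equalises distributions between arrays and combines the probes of each probe set, and it compresses changes of dim probe sets. No further normalisation was applied. Arrays have no sequencing depth, and their number limits the precision.

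The table held 45101 probe sets, and its 64 control features were dropped. Symbols came from the platform annotation, updated by gene identifier with the GRCm38.p6 RefSeq table. Limma 3.58.1 (R 4.3.3) was run per tissue on 6 group means over 18 arrays. Two-sided p-values were adjusted over 45037 probe sets by Benjamini and Hochberg, and those under 0.05 were called. Values after ± are standard errors of differences, or SDs of group means. The fit was tested on simulated data.

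The genes and lists were chosen with earlier results of these data known. All probe sets of the 4 genes are named. Other genes were named as the 5 most correlated with a member whose brightest probe set exceeded the tissue median, or as up to 4 called genes of a list, each by its brightest probe set. Hepatocyte and neuron markers checked the tissues. Pools of 3 mice are the replicates. The main fit did not pair pools by replicate number. Same-numbered deviations correlated at over 0.1 in 4 of 9 pairs in brain (range -0.42 to 0.41) and 1 of 9 in liver. So few pools cannot exclude pairing, and a replicate block was run as an alternative. Settings that left out arrays of narrow spread, raised beta-actin difference or muscle transcripts were added after the data had been seen.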

Additional observations from a re-analysis of the deposited data

Results flagged for a closer look

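The liver response of Lpin1 was singled out because the interaction fitted to it passed on 1 of its 2 probe sets. The fit uses the liver arrays whose response chose these genes, so its p-values are given as a description and support no strain difference. On 1418288_at the strain by sleep deprivation interaction had a limma adjusted p of 0.0421, and the response in DBA/2J minus that in C57BL/6J was -1.67 ± 0.26 (limma adjusted p = 0.0245). All 3 sleep-deprived pools exceeded all 3 controls in both strains, so the responses had the same direction. The second Lpin1 probe set gave -1.41 ± 0.27 and did not pass (limma adjusted p = 0.1617, and 0.1546 for the interaction). Over the alternatives run for 1418288_at the difference lay between -1.80 and -1.43, with limma adjusted p between 0.0013 and 0.1021. The call was kept in 17 of 26 alternatives, and was lost without any 1 of DBA/2J sleep-deprived arrays 1 to 3, DBA/2J controls 2 and 3, C57BL/6J sleep-deprived arrays 2 and 3 and C57BL/6J control 2. It was also lost without the 2 doubted liver arrays together, at -1.77 (limma adjusted p = 0.0515).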

How the results depend on the processing

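Over 26 to 28 alternatives per value, the mean liver responses of both Lpin1 probe sets, of Mfsd2a and of Lpin2 1452836_at and 1452837_at kept their direction and call, and 6 probe sets stayed called in every fit that left out 1 array. Lpin2 1460290_at lost its call without the AKR/J controls labelled ZT 0 (0.78) and without AKR/J (0.92). With array weights, 1 probe set was called in brain over the strains, 1 in the brain strains and 3 in the brain control differences. Without the 3 arrays of narrow spread, and without the 5 doubted brain arrays, these were 1 over the strains and 3 in the control differences. Without the AKR/J controls labelled ZT 0, the liver strain effects gave 4 calls against 9, the liver interaction 0 against 1, and the liver control differences 4 against 9, with fewer arrays. With 1 fit over both tissues, and without the 2 doubted liver arrays, the liver interaction gave 2 calls, and the second setting gave 5 in the liver control differences. Leaving out 1 array gave 0 to 1 calls in brain over the strains, with 1 only without DBA/2J sleep-deprived array 2. It gave 5 to 9 in the liver strain effects, 0 to 2 in the liver interaction, 1 to 2 in the brain control differences and 4 to 11 in the liver control differences. The low liver counts came without C57BL/6J sleep-deprived array 1 or 2 (strain effects) and without AKR/J control 2, C57BL/6J control 3 or DBA/2J control 1 (4 or 5 control differences).

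Sign changes were confined to brain values that did not pass. Lpin1 1418288_at turned to 0.0426 without the 3 arrays of narrow spread and 0.0555 without the 5 doubted arrays. Lpin1 1426516_a_at turned to 0.0177 with array weights, 0.0337 without 3 and 0.0509 without 5 arrays, and lay between -0.0734 and 0.0059 with 1 array left out. Lpin2 1446316_at turned to 0.0925 with array weights, 0.0081 without AKR/J, 0.0536 without 3 and 0.0529 without 5 arrays, and lay between -0.0751 and 0.0114 with 1 array left out. Mfsd2a in DBA/2J brain lay between -0.0303 and 0.4251 with 1 array left out. Replicate numbers as a replicate block gave 0 calls in brain and 6 in liver over the strains, 7 against 9 in the liver strain effects, and 8 against 9 in the liver control differences. Counting a gene when any of its probe sets was called gave 2 against 1 in brain glycerolipid synthesis, liver phospholipid synthesis and liver lysophospholipid handling, and 1 against 0 in brain lysophospholipid handling and the brain endothelial markers. The other pathway lists had the same counts. The cause of these changes was not tested.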
